A study of Mus musculus with 25 samples.

Results

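The effect of sham surgery on gene expression in lumbar dorsal root ganglia was set between 16 and 4 weeks after the operation. For each gene the difference between sham and naive mice at 16 weeks was taken, and the same difference at 4 weeks was subtracted from it, on a log2 scale. The quantity is called the change of the sham effect here. Its members were chosen by group label: 12 of the 25 arrays of the series, with 3 arrays in each of sham mice at 16 weeks, naive mice at 16 weeks, sham mice at 4 weeks and naive mice at 4 weeks. All 20260 named genes that were bright enough were tested.

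All mice were male C57BL/6, and the ganglia were those of levels L3 to L5. Sham mice had an operation on the right knee when 10 weeks old, without destabilization of the joint, and were killed 4 or 16 weeks later, at 14 or 26 weeks of age. Naive mice had no surgery and were killed at the same ages. The series also holds mice given DMM surgery, which cuts the ligament that holds the medial meniscus and leads to osteoarthritis of the knee, at the same times, and all 3 treatments at 8 weeks, where 1 sham array is given and the other 2 of 3 had not met the submitters' quality control. The labels do not say whether 1 array holds 1 animal or a pool, nor that the 3 arrays of a group come from separate animals, so p-values here reflect only how far these samples spread, which may be technical.

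Dorsal root ganglia are where the sensory neurons of the limb have their cell bodies, and these neurons report touch, limb position and pain. Each cell body is wrapped by satellite glia, its axon is accompanied by Schwann cells, and resident macrophages lie among the neurons and around their vessels. Macrophages depend on the growth factor CSF1 through its receptor Csf1r, clear debris through scavenger and Fc receptors and lysosomal enzymes, and are a main source of complement C1q in nervous tissue. After injury of a peripheral axon, sensory neurons switch on a set of regeneration genes led by the transcription factor Atf3, and ganglion macrophages increase. A sham operation is itself a small injury, and naive mice give the unoperated level. In whole tissue, fewer cells of a type and less RNA per cell cannot be told apart.

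The 12 arrays were alike in median and in correlation within groups, which does not measure RNA quality. Medians of the 12 arrays lay between 4.90 and 4.96 on the log2 scale, and arrays of 1 group correlated at 0.997 to 0.998 over the genes tested. The tissue label held, since the mean of 16 neuronal markers was 14.81 ± 0.05 in sham mice against 14.82 ± 0.04 in naive mice at 16 weeks, with 14.85 ± 0.02 in sham mice against 14.86 ± 0.02 in naive mice at 4 weeks (SD, n = 3 each). Among these 12 arrays, the naive ones at 4 weeks had the highest level of the nerve injury factor Atf3. Atf3 read 7.04, 6.72 and 6.85 in sham mice at 16 weeks, 6.67, 6.74 and 6.74 in naive mice at 16 weeks, 8.51, 7.58 and 7.86 in sham mice at 4 weeks, and 9.20, 8.69 and 9.60 in naive mice at 4 weeks. The naive arrays at 4 weeks did not overlap with any of the other 3 groups. The medians of the negative control probe sets were 5.17 to 5.25 in sham mice against 5.12 to 5.31 in naive mice at 16 weeks, with 5.07 to 5.21 in sham mice against 5.06 to 5.08 in naive mice at 4 weeks. The naive arrays at 4 weeks lay at the low end, where the first sham replicate at 4 weeks also lay (5.07), and the part of either difference in the results was not tested. No value of the contrast exists without the naive arrays at 4 weeks, since they form 1 of its 4 groups. Their treatment and time were taken from the sample titles, and whether the samples were handled as titled was not tested.

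Of the 20260 genes, 424 passed an adjusted p of 0.05 in limma (2.09%). The sham effect rose in 387 of them (1.91% of genes tested) and fell in 37 (0.183%). Macrophage genes, ribosomal protein pseudogenes and small nucleolar RNAs were among those that rose, and 35 of the 37 that fell were protein coding. In 385 of the 387, the mean of sham mice was above that of naive mice at 16 weeks and below it at 4 weeks, and in 37 of the 37 the order was the opposite. The median difference of sham from naive mice among the genes that rose was 0.26 at 16 weeks and -0.32 at 4 weeks on the log2 scale. Among the genes that fell it was -0.22 at 16 weeks and 0.37 at 4 weeks.

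Among the 424 genes both sham and naive mice contributed, and the naive side was the larger in most. These genes were chosen for a large change of the sham effect, which favours opposite moves. Among the genes whose sham effect rose, sham mice were higher at 16 than at 4 weeks in 361 of 387 and naive mice were lower at 16 than at 4 weeks in 385 of 387. The median differences between 16 and 4 weeks were 0.23 in sham and -0.36 in naive mice. Among the 37 that fell, sham mice were lower at 16 weeks in 30 and naive mice were higher in 37, with medians of -0.18 and 0.43. The difference between times was larger in naive than in sham mice in 321 of the 424 genes. Over all 20260 genes, 1232 were higher and 2579 lower at 16 than at 4 weeks in naive mice (limma adjusted p under 0.05). In sham mice it was 188 and 169.

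**Figure D1:**
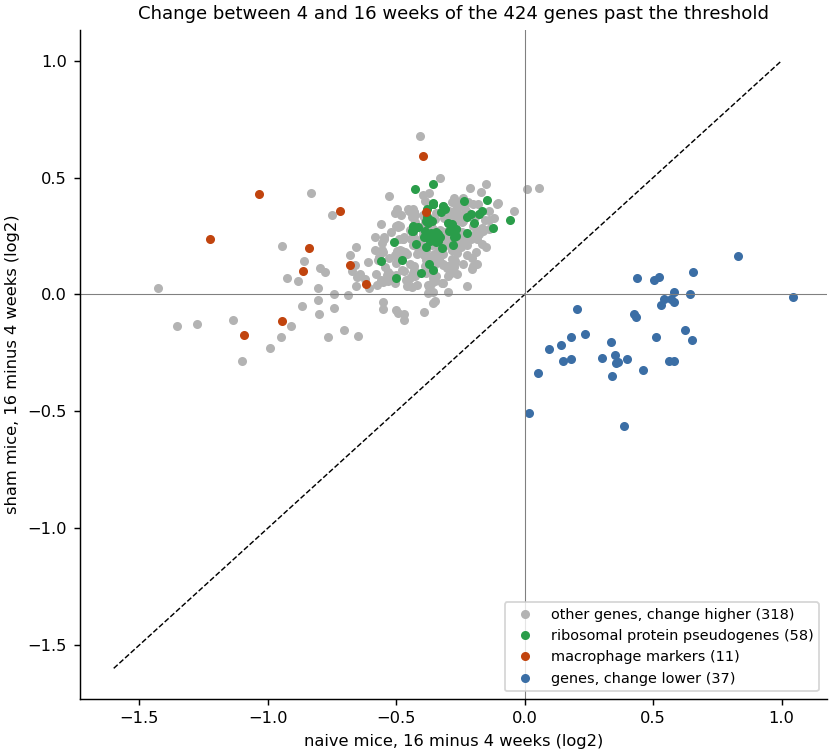
Each point is 1 of the 424 genes past the threshold, placed by its difference between 16 and 4 weeks in naive mice (x axis, log2) and in sham mice (y axis, log2), each from means of 3 arrays. The 387 genes whose sham effect rose lie above the dashed line of equal change, nearly all to the left of 0 in naive mice, and the 37 that fell lie below it.

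Over all genes tested, the median change of the sham effect was 0.07 and 63.1% of genes lay above 0, so as deposited the whole distribution leaned to the higher side. An unadjusted p under 0.05 was reached by 3027 genes with a higher change (14.9%) and 1056 with a lower one (5.21%), together 20.2%. After quantile normalization these shares were 12.1% and 6.33%, and after cyclic loess, where the median was 0.02, they were 9.08% and 9.33%. The split of calls depended on the scaling of the arrays. As deposited, 91.3% of the genes past the threshold had a higher change, whereas after quantile normalization it was 56.3% of 366 genes (206 higher, 160 lower) and after cyclic loess 34.5% of 429 (148 higher, 281 lower). The count also rested on single arrays: it was 242, 193 and 222 without sham replicate 1, 2 or 3 at 16 weeks, 122 without naive replicate 1 at 16 weeks, 158 without sham replicate 2 at 4 weeks, and 156 and 225 without naive replicate 1 or 3 at 4 weeks. No gene of the 424 turned direction in any of these settings, but the settings reuse the arrays on which these genes were chosen.

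Macrophage markers had the most genes past the threshold of the 39 gene lists examined. All 23 tested members of a list of 24 macrophage markers had a change of the sham effect above 0, with a median of 0.74 against 0.07 over all genes. The effect rose in 11 of the 23 and fell in none, beside 1.91% and 0.183% of all genes tested. An unadjusted p under 0.05 was reached by 20 of 23, beside 14.9% of all genes. In 15 of 23, every difference between a sham and a naive array at 16 weeks exceeded every such difference at 4 weeks, beside 8.90% of all genes, and none had the opposite order, beside 3.01%.

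The bases just upstream of macrophage genes often hold the PU box, the core of the sites bound by the lineage factor PU.1, spelled GAGGAA or TTCCTC on the other strand. The promoters shown here belong to macrophage markers past the threshold. The 250 bases upstream of each start are from RefSeq (GRCm38.p6), read 5′ to 3′ on the gene's own strand, with each PU box in capitals. They lie at chr2:14229164-14229413 (plus strand) for Mrc1, chr11:69666171-69666420 (minus) for Cd68, chr4:136886201-136886450 (minus) for C1qb, chr3:95526536-95526785 (plus) for Ctss and chr10:117282273-117282522 (minus) for Lyz2.
Mrc1: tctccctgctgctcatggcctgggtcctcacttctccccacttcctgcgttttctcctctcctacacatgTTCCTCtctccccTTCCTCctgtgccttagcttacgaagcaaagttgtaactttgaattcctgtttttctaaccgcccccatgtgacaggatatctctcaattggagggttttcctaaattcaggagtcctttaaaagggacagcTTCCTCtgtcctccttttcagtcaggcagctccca
Cd68: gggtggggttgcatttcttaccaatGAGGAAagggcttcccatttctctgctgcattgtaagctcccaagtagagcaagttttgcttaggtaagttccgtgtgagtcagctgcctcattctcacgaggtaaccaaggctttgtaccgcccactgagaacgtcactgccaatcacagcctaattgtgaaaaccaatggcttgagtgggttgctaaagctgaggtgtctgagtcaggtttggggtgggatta
C1qb: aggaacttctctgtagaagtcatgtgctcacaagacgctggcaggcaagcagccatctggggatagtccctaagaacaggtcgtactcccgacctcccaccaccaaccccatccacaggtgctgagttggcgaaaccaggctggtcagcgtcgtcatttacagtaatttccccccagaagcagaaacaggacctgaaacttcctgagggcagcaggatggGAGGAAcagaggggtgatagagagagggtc
Ctss: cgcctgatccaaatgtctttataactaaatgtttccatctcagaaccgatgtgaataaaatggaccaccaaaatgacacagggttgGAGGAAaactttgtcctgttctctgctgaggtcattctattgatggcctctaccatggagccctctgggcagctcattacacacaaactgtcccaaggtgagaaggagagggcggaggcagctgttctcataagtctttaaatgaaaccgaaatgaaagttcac
Lyz2: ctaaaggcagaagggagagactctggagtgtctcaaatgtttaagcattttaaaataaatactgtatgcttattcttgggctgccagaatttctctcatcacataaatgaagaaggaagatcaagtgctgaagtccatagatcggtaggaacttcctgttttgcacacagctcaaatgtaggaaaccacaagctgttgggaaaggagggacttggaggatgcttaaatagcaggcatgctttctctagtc
Mrc1 holds 3 PU boxes in this window, Cd68, C1qb and Ctss hold 1 each, and Lyz2 holds none. A PU box was found in the window of 6 of the 9 macrophage genes past the threshold that have a promoter in the table (66.7%) and of 11 of 17 macrophage markers tested (64.7%). Counted by promoter, it was found in 23.3% of all 32851 windows of the same length. Counted by gene, as for the macrophage markers, it was found in 25.7% of the 12266 tested genes with a promoter. A match is a description of these letters and was not tested as a binding site.

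Mrc1, the mannose receptor CD206 of tissue macrophages, read 8.80, 8.87 and 8.65 in sham mice against 8.40, 8.56 and 8.26 in naive mice at 16 weeks, with 8.71, 8.27 and 8.26 in sham mice against 8.97, 9.35 and 9.06 in naive mice at 4 weeks. Sham arrays lay above all naive arrays at 16 weeks and below all naive arrays at 4 weeks. The sham effect was 0.37 ± 0.14 at 16 weeks and -0.71 ± 0.14 at 4 weeks, a rise of 1.08 ± 0.20 (SE) or 2.11-fold (limma adjusted p = 0.0111).

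Csf1r, the receptor for CSF1 that macrophages need to survive, read 7.26, 7.36 and 7.28 in sham mice against 7.09, 7.16 and 6.91 in naive mice at 16 weeks, with 7.26, 7.14 and 7.12 in sham mice against 7.53, 7.97 and 7.70 in naive mice at 4 weeks. Neither pair of groups overlapped, and the order of sham and naive was opposite at the 2 times. Its sham effect rose by 0.81 ± 0.15 or 1.75-fold (limma adjusted p = 0.0117). Most of that came from naive mice, which differed by -0.68 between 16 and 4 weeks, against 0.13 in sham mice.

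Cd68, a lysosomal glycoprotein of phagocytes, read 7.52, 7.55 and 7.18 in sham mice against 7.25, 7.28 and 6.98 in naive mice at 16 weeks, with 6.94, 6.72 and 6.82 in sham mice against 7.41, 7.73 and 7.54 in naive mice at 4 weeks. The groups overlapped at 16 weeks and were apart at 4 weeks. Its effect rose by 0.99 ± 0.19 or 1.98-fold (limma adjusted p = 0.0140). Here the sham side was the larger, with 0.59 between 16 and 4 weeks in sham mice, against -0.40 in naive mice.

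The lysozymes Lyz2 and Lyz1, secreted enzymes that break bacterial walls, gave some of the largest changes. Lyz2 read 11.13, 11.82 and 11.34 in sham mice against 10.59, 10.80 and 10.37 in naive mice at 16 weeks, with 11.31, 10.58 and 11.12 in sham mice against 11.54, 11.99 and 11.32 in naive mice at 4 weeks. The groups were apart at both times, by little at 4 weeks. The effect of Lyz2 rose by 1.46 ± 0.30 (2.76-fold, limma adjusted p = 0.0179). That of Lyz1 rose by 1.04 ± 0.21 (2.06-fold, limma adjusted p = 0.0157). The 2 genes are near copies, and probes of one may read the other.

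C1qb and C1qc, chains of the complement starter C1q, moved alike. C1qb read 8.42, 8.03 and 7.69 in sham mice against 7.81, 7.63 and 7.33 in naive mice at 16 weeks, with 8.20, 7.47 and 7.76 in sham mice against 8.53, 9.08 and 8.81 in naive mice at 4 weeks. Sham and naive arrays overlapped at 16 weeks, and at 4 weeks every naive array was above every sham array. The effect rose by 1.46 ± 0.33 for C1qb (2.75-fold, limma adjusted p = 0.0306) and by 0.96 ± 0.21 for C1qc (limma adjusted p = 0.0218). C1qb missed the threshold in 10 of 23 alternative settings and C1qc in 4. The third chain, C1qa, differed by 0.56 ± 0.20 and missed the threshold (limma adjusted p = 0.117).

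The other macrophage genes past the threshold were the lysosomal protease Ctss (0.92 ± 0.23), the fractalkine receptor Cx3cr1 (0.83 ± 0.21), the signalling adaptor Tyrobp (0.74 ± 0.16) and the IgG receptor Fcgr3 (0.66 ± 0.15). Cx3cr1 was close to the limit (limma adjusted p = 0.0482), and its effect missed the threshold in 14 of 23 alternative settings. Ctss read 7.34, 7.58 and 7.34 in sham mice against 7.37, 7.07 and 6.88 in naive mice at 16 weeks, with 7.88, 7.32 and 7.58 in sham mice against 8.15, 8.31 and 8.15 in naive mice at 4 weeks. Naive mice at 4 weeks were the high group again, and sham mice were not higher at 16 than at 4 weeks (-0.17). The smallest values of the list were those of Aif1, a calcium-binding protein of macrophages (0.21 ± 0.13), and of the scavenger receptors Msr1 (0.36 ± 0.13) and Cd163 (0.37 ± 0.13).

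**Figure D2:**
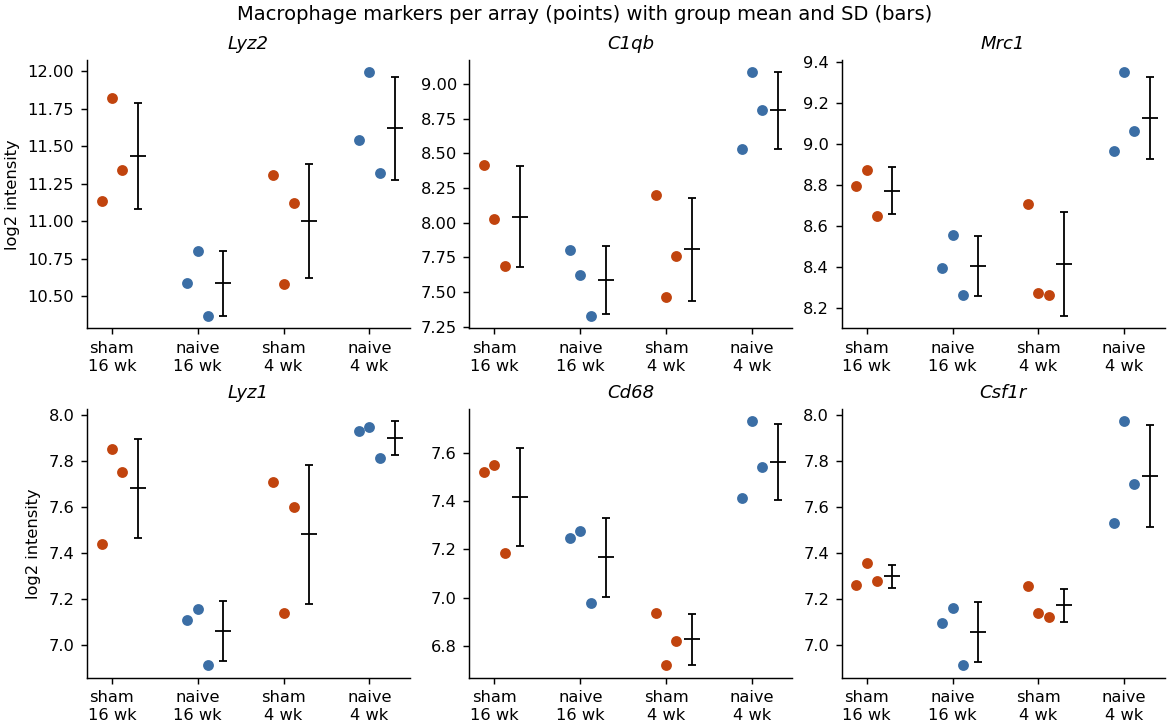
Log2 intensity (y axis) of 6 macrophage markers on each array (points), with group mean and SD (bars, n = 3), for sham and naive mice at 16 and at 4 weeks (x axis). In each gene sham means lie above naive means at 16 weeks and below them at 4 weeks, and naive mice at 4 weeks are the highest group.

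As a group, the 23 macrophage markers had a mean of 6.82 ± 0.09 in sham mice against 6.55 ± 0.09 in naive mice at 16 weeks, with 6.68 ± 0.15 in sham mice against 7.18 ± 0.14 in naive mice at 4 weeks (SD, n = 3 each). Between 16 and 4 weeks naive mice were lower in 23 of 23 markers, with a median of -0.62, and sham mice were higher in 16 of 23, with a median of 0.10. DMM mice, which share no array with this contrast, had means of 7.001 ± 0.147 at 16 weeks and 7.01 ± 0.03 at 4 weeks. The number of markers past the threshold was 11 after quantile normalization, 10 after cyclic loess and 8 with the replicate number within each time as a block. It was 6 without naive replicate 2 at 4 weeks, 5 and 6 without sham replicate 2 or 3 at 4 weeks, and 5 and 6 without sham replicate 1 or 2 at 16 weeks. Mrc1, Csf1r, Cd68 and Lyz1 passed in each of the 23 alternative settings.

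Markers of the sheath around the ganglion lay on the same side of 0 as those of macrophages, and none passed the threshold as deposited. All 22 tested members of the list of fibroblasts and meninges had a change above 0, with a median of 0.89, but their arrays were widely spread and 0 passed in limma. With all 25 arrays fitted, an unadjusted p under 0.05 was reached by 3 of 22, a smaller share than the 14.9% of all genes. With only the 12 arrays compared, 16 of 22 reached it, beside 4600 of all 20260 genes in either direction, and 0 passed. The pooled spread also takes in DMM arrays, where the list mean had an SD of 1.25 at 16 weeks and 0.71 at 8 weeks. In 7 of 22, every sham minus naive difference at 16 weeks exceeded every one at 4 weeks, beside 8.90% of all genes. The list mean was 8.72 ± 0.41 in sham mice against 8.14 ± 0.37 in naive mice at 16 weeks, with 8.09 ± 0.34 in sham mice against 8.58 ± 0.27 in naive mice at 4 weeks. The summed level of the list ran from 16.67 to 17.26 in sham mice against 15.93 to 16.66 in naive mice at 16 weeks, with from 15.97 to 16.54 in sham mice against 16.65 to 16.91 in naive mice at 4 weeks. Ptgds, the prostaglandin D synthase of the leptomeninges, showed the spread best, with 12.44, 14.73 and 13.35 in sham mice against 7.74, 13.30 and 10.80 in naive mice at 16 weeks, with 11.09, 8.92 and 13.88 in sham mice against 13.57, 10.08 and 14.40 in naive mice at 4 weeks. Its groups overlapped at 4 weeks and at 16 weeks, and its change of 4.28 ± 2.57 missed the threshold (limma adjusted p = 0.365). With the mean of this list as a covariate, 8 of the 23 macrophage markers passed, with a median of 0.78, against 116 of all genes.

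The sheath proteoglycans were the members of smallest p. Ogn (osteoglycin) differed by 1.24 ± 0.40 (limma adjusted p = 0.0965), Lum (lumican) by 0.97 ± 0.41 and Dcn (decorin) by 0.92 ± 0.40. Among 35 extracellular matrix genes the median was 0.35, with 0 past the threshold. An unadjusted p under 0.05 was reached by 4, a smaller share than the 14.9% of all genes. With only the 12 arrays compared, it was reached by 14 of the 35, and 0 passed. With the sheath mean as covariate, that median was 0.01. The sheath and matrix lists share Col1a1, Col1a2, Dcn and Lum, so that fit draws the matrix median toward 0 in part by construction. Col15a1, a collagen of basement membranes, differed by 0.40 ± 0.13 (limma adjusted p = 0.106).

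The other lists of immune genes lay mostly above 0, and few of their members passed. Of 13 complement genes tested, 2 rose, beside 1.91% of all genes. These were C1qb and C1qc, already counted among the macrophage markers, a list that also holds C1qa. An unadjusted p under 0.05 was reached by 5 of the 13, beside 14.9% of all genes, and the median was 0.33. The 2 became 1 with the replicate number within each time as a block. They became 0 without sham replicate 2 or 3 at 4 weeks or sham replicate 1 at 16 weeks. Cd59a, which blocks the complement pore, differed by 0.40 ± 0.12 (limma adjusted p = 0.0778). All 7 class II antigen presentation genes lay above 0, with a median of 0.73. None of the 7 passed in limma as deposited, while 5 reached an unadjusted p under 0.05, beside 14.9% of all genes.

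H2-Ab1, a class II chain, read 10.41, 10.74 and 10.18 in sham mice against 10.08, 10.00 and 9.60 in naive mice at 16 weeks, with 10.21, 9.58 and 10.01 in sham mice against 10.38, 10.92 and 10.34 in naive mice at 4 weeks. The groups were apart at both times in opposite order, and the change of 1.17 ± 0.31 fell just outside the limit (limma adjusted p = 0.0548). Its partner chain H2-Aa differed by 0.96 ± 0.26 (limma adjusted p = 0.0554). Of 24 cytokine and chemokine genes, 1 rose, the receptor Cx3cr1 that is also counted among the macrophage markers, and 7 had an unadjusted p under 0.05 (median 0.37), beside 1.91% and 14.9% of all genes. The chemokines Ccl6 and Cxcl16 differed by 0.73 ± 0.19 and 0.81 ± 0.22 (limma adjusted p = 0.0503 and 0.0554). Clec2d, a lectin-like ligand of natural killer cell receptors, rose by 1.08 ± 0.25 (limma adjusted p = 0.0315), and its difference between 16 and 4 weeks was 0.68 in sham and -0.41 in naive mice. It missed the threshold in 10 of 23 alternative settings.

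Pattern receptors, interferon genes and neutrophil genes did not pass in limma as deposited. Among 16 alarmin and pattern receptor genes the median was 0.31, with 5 at an unadjusted p under 0.05 beside 14.9% of all genes, and Tlr8, a receptor for single-stranded RNA, differed by 0.58 ± 0.16 (limma adjusted p = 0.0554). Among 29 interferon-stimulated genes the median was 0.20, with 2 at an unadjusted p under 0.05, a smaller share than in all genes. The 10 neutrophil and marrow precursor genes had a median of 0.46, with 1 at an unadjusted p under 0.05, a smaller share than in all genes. The median was 0.22 without sham replicate 2 at 16 weeks, and 0.76 without sham replicate 1 at 16 weeks, where 3 of the 10 passed. In sham replicate 2 at 16 weeks Ngp, a granule protein of immature neutrophils, read 7.74, beside 4.86 and 6.35 in the other sham and 5.12, 5.28 and 5.50 in the naive arrays at 16 weeks, and 5.38, 5.24 and 4.86 in sham mice against 5.07, 5.32 and 5.09 in naive mice at 4 weeks. The summed level of this list ran from 8.51 to 11.49 in sham mice against 8.68 to 9.06 in naive mice at 16 weeks, with from 8.85 to 9.60 in sham mice against 8.93 to 9.10 in naive mice at 4 weeks. Its part in the macrophage result was not tested.

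Gpihbp1, the anchor that holds lipoprotein lipase on capillary endothelium, was the only one of 18 endothelial genes past the threshold. It read 5.98, 5.90 and 5.93 in sham mice against 5.83, 6.01 and 5.81 in naive mice at 16 weeks, with 5.65, 5.67 and 5.68 in sham mice against 6.12, 6.22 and 6.25 in naive mice at 4 weeks. The 3 sham arrays at 4 weeks were the low group and did not overlap with any other. The effect rose by 0.58 ± 0.12 or 1.497-fold (limma adjusted p = 0.0158) and passed in each of the 23 alternative settings. The median of the endothelial list was 0.14, near that of all genes. Past the threshold the list had 1 of 18, beside 1.91% of all genes that rose. An unadjusted p under 0.05 with a higher change was reached by 1 of 18, a smaller share than the 14.9% of all genes.

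**Figure D3:**
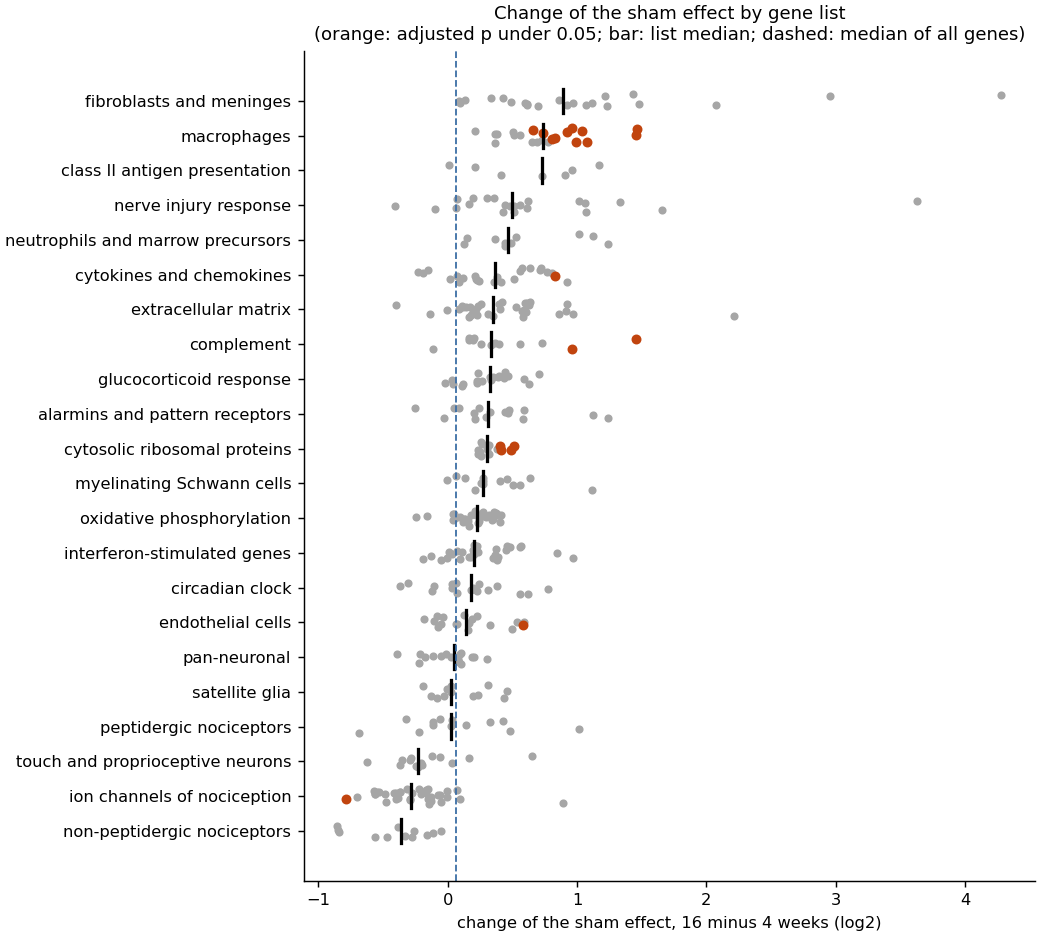
Change of the sham effect, 16 minus 4 weeks (x axis, log2), for each tested member of 22 gene lists (points), with the list median (bar) and the median of all genes (dashed line, 0.07). Orange points passed an adjusted p of 0.05, and 11 of the 23 macrophage markers did so, whereas the widely spread list of fibroblasts and meninges had 0.

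As deposited, pseudogenes were the most numerous kind of transcript past the threshold, and some are copies of ribosomal protein genes. Ribosomal proteins build the ribosome, and their processed pseudogenes are intronless copies scattered through the genome. By annotation, 245 of 2776 pseudogenes rose and none fell (median 0.28), against 94 and 35 of 13865 protein-coding genes (median 0.03). Over all genes tested 1.91% rose and 0.183% fell. The split of protein-coding genes turned with the scaling, to 57 higher and 156 lower after quantile normalization and 43 higher and 277 lower after cyclic loess (median -0.02). Pseudogenes had 120 and 87 higher and none lower in those settings. Of 185 ribosomal protein pseudogenes, 58 rose and 140 reached an unadjusted p under 0.05 in that direction, with a median of 0.46. The shares over all genes tested were 1.91% and 14.9%. Of 38 ribosomal protein genes, 13 rose, beside 1.91% of all genes, with a median of 0.35. A pseudogene and its parent gene share most of their sequence, so probes may read both and these counts are not independent.

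All 15 ribosomal protein genes of the fixed list lay above 0 (median 0.30), and 4 rose, beside 1.91% of all genes. Rpl27 read 12.24, 12.09 and 12.31 in sham mice against 12.06, 12.04 and 11.90 in naive mice at 16 weeks, with 12.262, 12.008 and 11.9997 in sham mice against 12.33, 12.40 and 12.43 in naive mice at 4 weeks. The groups were apart at both times, in opposite order, and the effect rose by 0.51 ± 0.11 (limma adjusted p = 0.0199). Rps29 rose by 0.49 ± 0.11, Rpl19 by 0.41 ± 0.10 and Rplp0 by 0.41 ± 0.09 (limma adjusted p = 0.0218, 0.0369 and 0.0319). The threshold was missed in 16 of 23 alternative settings by Rpl19, 14 by Rplp0, 9 by Rps29 and 5 by Rpl27. The list mean was 10.09 ± 0.02 in sham mice against 9.92 ± 0.04 in naive mice at 16 weeks, with 9.97 ± 0.06 in sham mice against 10.14 ± 0.02 in naive mice at 4 weeks (SD, n = 3 each). The shifts were small beside those of macrophage genes, and so was the spread. After quantile normalization or cyclic loess 0 of these 15 genes passed, while 23 and 19 of the ribosomal protein pseudogenes did.

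Small nucleolar RNAs guide the chemical modification of ribosomal RNA and are mostly cut from introns of host genes. By annotation, 24 of 626 rose and 1 fell (median 0.30), beside 1.91% and 0.183% of all genes tested. The number that rose was 14 after quantile normalization and 8 after cyclic loess. Snord58b read 11.72, 11.82 and 11.91 in sham mice against 10.97, 10.95 and 10.79 in naive mice at 16 weeks, with 11.94, 11.41 and 12.02 in sham mice against 12.19, 12.27 and 12.52 in naive mice at 4 weeks. Naive mice held both the lowest and the highest group, and sham mice differed by 0.03 between 16 and 4 weeks, against -1.43 in naive mice. Its effect rose by 1.46 ± 0.27 or 2.74-fold (limma adjusted p = 0.0111), and Snord49a and Snord35a rose by 1.26 ± 0.32 and 1.22 ± 0.31 (limma adjusted p = 0.0445 and 0.0479). Gm25128, another small nucleolar RNA by annotation, rose by 1.15 ± 0.27 (limma adjusted p = 0.0338). Snord58b passed in each of the 22 alternative settings that tested it, whereas Snord49a and Snord35a missed the threshold in 16 of 22 and Gm25128 in 10 of 22. Outside this class, the annotated pseudogene Gm26254 rose by 1.15 ± 0.27 and the microRNA gene Mir320 by 1.09 ± 0.28 (limma adjusted p = 0.0345 and 0.0489), and they missed it in 8 and 15 of 22 settings. Among 689 small nuclear RNA genes the median was 0.49, but only 3 rose, a smaller share than the 1.91% of all genes. An unadjusted p under 0.05 with a higher change was reached by 38.9% of them, beside 14.9% of all genes. It was 30.9% after quantile normalization and 18.3% after cyclic loess, beside 12.1% and 9.08% of all genes.

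Subunits of oxidative phosphorylation, the mitochondrial respiratory chain, had small values on the same side. Of 32 tested, 30 lay above 0 with a median of 0.23, 17 had an unadjusted p under 0.05, beside 14.9% of all genes, and 0 passed in limma. The 17 became 9 after quantile normalization and 6 after cyclic loess. Cox7c differed by 0.32 ± 0.08 and Ndufv2 by 0.38 ± 0.10 (limma adjusted p = 0.0546 and 0.0578).

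The number of genes whose sham effect fell depended on the setting. In place of 37 there were 160 after quantile normalization, 281 after cyclic loess, 253 with array weights, 102 with a filter at the 60th percentile, 20 with no filter, 68 with only the 12 arrays compared, 1 with the sheath marker mean as a covariate and 0 when only protein-coding genes were tested. There were 10, 5 and 3 without naive replicate 1, 2 or 3 at 4 weeks, 21 and 4 without sham replicate 1 or 2 at 4 weeks, 2 and 56 without naive replicate 1 or 2 at 16 weeks, and 13, 2 and 22 without sham replicate 1, 2 or 3 at 16 weeks. Siah3, a relative of the Siah ubiquitin ligases, read 10.21, 10.08 and 10.34 in sham mice against 10.65, 10.56 and 10.73 in naive mice at 16 weeks, with 10.37, 10.33 and 9.98 in sham mice against 9.95, 9.38 and 9.48 in naive mice at 4 weeks. Sham arrays lay below all naive arrays at 16 weeks and above all of them at 4 weeks, and the effect fell by 1.06 ± 0.25 (limma adjusted p = 0.0338). Sham mice differed by -0.01 between 16 and 4 weeks, against 1.04 in naive mice. Cbl, a ubiquitin ligase that ends signalling of receptor tyrosine kinases, read 13.09, 12.65 and 12.98 in sham mice against 13.26, 13.12 and 13.58 in naive mice at 16 weeks, with 13.61, 13.60 and 13.20 in sham mice against 12.87, 13.06 and 12.87 in naive mice at 4 weeks. Here both sides took part, with -0.56 in sham and 0.39 in naive mice, and the effect fell by 0.95 ± 0.19 (limma adjusted p = 0.0164).

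Kcna4, a subunit of fast-inactivating potassium channels, fell by 0.79 ± 0.19 (limma adjusted p = 0.0338). It read 9.42, 9.08 and 9.41 in sham mice against 9.65, 9.35 and 9.70 in naive mice at 16 weeks, with 9.67, 9.90 and 9.30 in sham mice against 9.25, 9.08 and 8.99 in naive mice at 4 weeks. Sham and naive arrays overlapped at 16 weeks and were apart at 4 weeks, and the single-array differences of the 2 times overlapped too. The lipid kinase Dgki fell by 0.85 ± 0.22, the large membrane protein Csmd1 by 0.77 ± 0.18, the adhesion molecule Dscam by 0.69 ± 0.17 and the immunoglobulin family protein Igsf3 by 0.67 ± 0.17 (limma adjusted p = 0.0482, 0.0338, 0.0424 and 0.0439). Gm15559, DQ267102 and Gm8126, which have no described role here, fell by 0.87 ± 0.18, 0.84 ± 0.20 and 0.69 ± 0.18 (limma adjusted p = 0.0179, 0.0340 and 0.0482). Most of these calls were not stable: the threshold was missed in 14 of 23 alternative settings by Dgki, 13 by Dscam, 12 by Igsf3 and 10 each by Siah3, Kcna4 and Csmd1, and in 16 of 22 by Gm8126 and 11 of 22 by DQ267102. Cbl missed it in 2 of 23 and Gm15559 in 1 of 21.

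Ion channels of nociception, the genes that set the firing of pain-sensing neurons, lay mostly below 0. Of 36 tested, 33 were lower, with a median of -0.28, and 12 had an unadjusted p under 0.05 in that direction, beside 5.21% of all genes. Only Kcna4 fell as deposited, beside 0.183% of all genes. The number was 5 after quantile normalization, beside 160 of all 20260 genes, and 5 after cyclic loess, beside 281. It was 4 with array weights, beside 253, but 0 with only the 12 arrays compared or with the sheath covariate. It was also 0 without naive replicate 2 or 3 at 4 weeks, sham replicate 1 or 2 at 4 weeks, naive replicate 1 or 3 at 16 weeks, or sham replicate 2 at 16 weeks. Cacna1c, a calcium channel subunit, differed by -0.70 ± 0.19, Piezo2, the channel of light touch, by -0.53 ± 0.15 and Kcnk18, a background potassium channel, by -0.56 ± 0.17 (limma adjusted p = 0.0591, 0.0680 and 0.0724). Cacna1c read 10.54, 10.40 and 10.55 in sham mice against 10.98, 10.79 and 10.67 in naive mice at 16 weeks, with 10.41, 10.77 and 10.22 in sham mice against 10.24, 10.03 and 9.98 in naive mice at 4 weeks. The groups were apart at 16 weeks and overlapped at 4 weeks. Naive mice were higher at 16 than at 4 weeks in 27 of the 36 channels and sham mice lower in 26. The 3 list members above 0 were Tmem100, an adaptor of the channels Trpa1 and Trpv1 (0.89 ± 0.39, limma adjusted p = 0.205), the irritant receptor Trpa1 (0.10 ± 0.53) and the calcium channel subunit Cacna2d1 (0.07 ± 0.21).

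Markers of neuron types differed in direction, and none passed in limma. All 12 non-peptidergic nociceptor genes lay below 0, with a median of -0.36 and 3 at an unadjusted p under 0.05 beside 5.21% of all genes, among them the receptors Lpar3 (-0.84 ± 0.33) and Mrgprd (-0.47 ± 0.20) and the sodium channel Scn11a (-0.57 ± 0.21). Of 15 touch and proprioceptive genes, 12 lay below 0 with a median of -0.23, 2 at an unadjusted p under 0.05, and Ntrk3, the receptor for neurotrophin 3, differed by -0.63 ± 0.26. The 13 peptidergic nociceptor genes had a median of 0.02, with 1 at an unadjusted p under 0.05, and that median changed sign in 7 alternative settings. The 16 neuronal markers had a median of 0.05, with 1 at an unadjusted p under 0.05. It was -0.15 after quantile normalization and -0.18 after cyclic loess.

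The direction of the change followed the length of the gene in the genome. Among 834 protein-coding genes that span over 200 kb, 22.1% had an unadjusted p under 0.05 with a lower change and 1.20% with a higher one. Among 1753 genes under 5 kb, it was 1.997% with a lower and 14.4% with a higher change. The median span was 8.49 kb for the 94 protein-coding genes that rose and 91.4 kb for the 35 that fell, beside 24.0 kb for all. The 23 macrophage markers had a median span of 14.7 kb. The order held after quantile normalization (26.1% lower and 1.08% higher over 200 kb) and after cyclic loess (32.4% and 0.839%). The part of gene length in the calls was not tested.

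**Figure D4:**
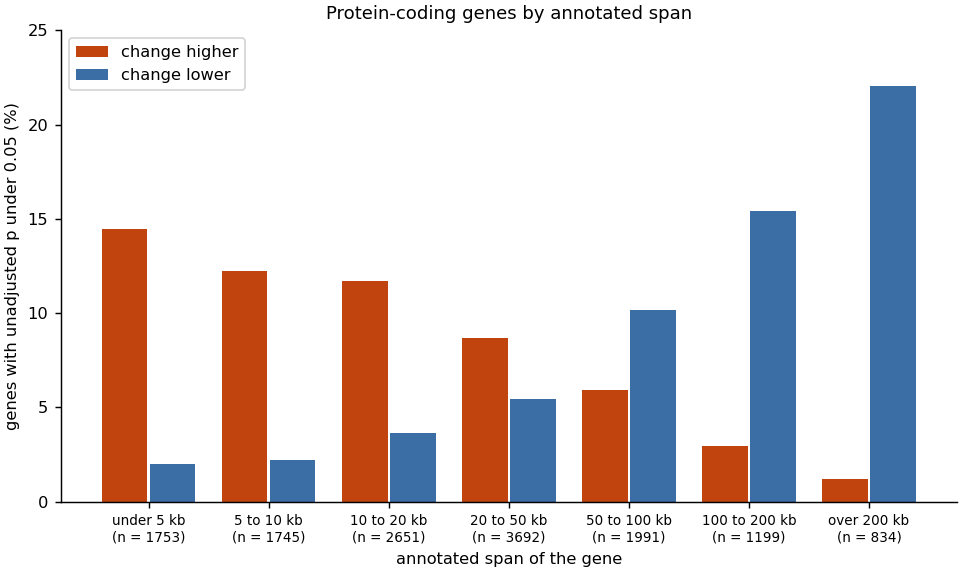
Share of protein-coding genes (y axis, %) with an unadjusted p under 0.05 and a higher (left bar of each pair) or lower (right bar) change of the sham effect, by annotated span of the gene (x axis, with the number of genes). From under 5 kb to over 200 kb, the higher share goes down to 1.20% and the lower share up to 22.1%.

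Among the 12 arrays compared, nerve injury genes were highest in naive mice at 4 weeks, and none of them passed as deposited with all 25 arrays fitted. The mean of 22 such genes was 8.42 ± 0.12 in sham mice against 8.41 ± 0.05 in naive mice at 16 weeks, with 9.21 ± 0.33 in sham mice against 9.85 ± 0.14 in naive mice at 4 weeks (SD, n = 3 each). Arrays outside the contrast reached the range of the naive arrays at 4 weeks (9.70 to 9.96), with 9.73 on the lone sham array at 8 weeks, 9.80 on DMM replicate 2 at 4 weeks and 9.98 on DMM replicate 2 at 8 weeks. Of the 22, 20 had a change above 0, beside 63.1% of all genes, with a median of 0.50, and 0 passed in limma. At an unadjusted p under 0.05, 3 were higher and 1 lower, smaller shares than the 14.9% and 5.21% of all genes. With only the 12 arrays compared, 3 rose, beside 508 of all 20260 genes. In that setting 11 were higher and 1 lower at an unadjusted p under 0.05, beside 4600 of all genes in either direction. With array weights, a trended and robust prior, or a filter at the 60th percentile, 1 rose, beside 1059, 418 and 575 of all genes. After quantile normalization or cyclic loess 1 fell, beside 160 and 281 of all genes. The pooled spread takes in DMM arrays, where the list mean had an SD of 0.60 at 4 weeks and 0.80 at 8 weeks. Sprr1a, a small protein that promotes axon outgrowth, read 5.69, 6.64 and 7.12 in sham mice against 5.32, 6.36 and 6.03 in naive mice at 16 weeks, with 11.78, 8.19 and 10.07 in sham mice against 13.04, 13.11 and 13.02 in naive mice at 4 weeks. Both 4-week groups were far above both 16-week groups, and its change of 3.63 ± 2.18 missed the threshold (limma adjusted p = 0.365). The change of Atf3 was 1.33 ± 0.68 (limma adjusted p = 0.280).

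The injury-linked LIM protein Tes differed by 0.56 ± 0.15, just outside the limit (limma adjusted p = 0.0503). Ecel1, a membrane peptidase switched on in injured neurons, read 4.86, 4.90 and 4.77 in sham mice against 4.88, 4.79 and 4.87 in naive mice at 16 weeks, with 6.00, 5.32 and 5.72 in sham mice against 6.66, 7.02 and 6.57 in naive mice at 4 weeks. At 16 weeks the arrays lay together below the medians of the negative controls, and the change of 1.06 ± 0.49 came from 4 weeks (limma adjusted p = 0.228). Csf1, the ligand of Csf1r that injured sensory neurons make, differed by 0.51 ± 0.25 (limma adjusted p = 0.252). It read 7.32, 6.95 and 7.01 in sham mice against 7.42, 7.62 and 7.57 in naive mice at 4 weeks, against 6.63 to 6.92 over the 6 arrays at 16 weeks.

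Genes of glia had smaller values. Among 12 satellite glia genes the median was 0.03, with 3 at an unadjusted p under 0.05 beside 14.9% of all genes, and Fabp7, a fatty acid binding protein of these cells, differed by 0.43 ± 0.15 (limma adjusted p = 0.122). Among 14 genes of myelinating Schwann cells the median was 0.27, also with 3, and Egr2, the transcription factor of myelination, differed by 0.51 ± 0.17 (limma adjusted p = 0.111). These counts depended on the scaling. After quantile normalization or cyclic loess, the satellite glia list had 0 higher and 1 lower at that limit, and the Schwann cell list 1 higher. Of 20 glucocorticoid-responsive genes, 19 lay above 0 with a median of 0.33 and 6 at an unadjusted p under 0.05. Sgk1, a kinase they include, differed by 0.39 ± 0.13 (limma adjusted p = 0.103). Among 17 circadian clock genes the median was 0.18, with 1 higher and 1 lower at an unadjusted p under 0.05, and the clock repressor Cry2 differed by -0.37 ± 0.14 (limma adjusted p = 0.136). No gene of these 4 lists passed in limma. In the other 17 lists, 0 of 205 members passed, 18 were higher and 8 lower at an unadjusted p under 0.05, both smaller shares than in all genes, and list medians ran from -0.09 to 0.66.

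**Figure D5:**
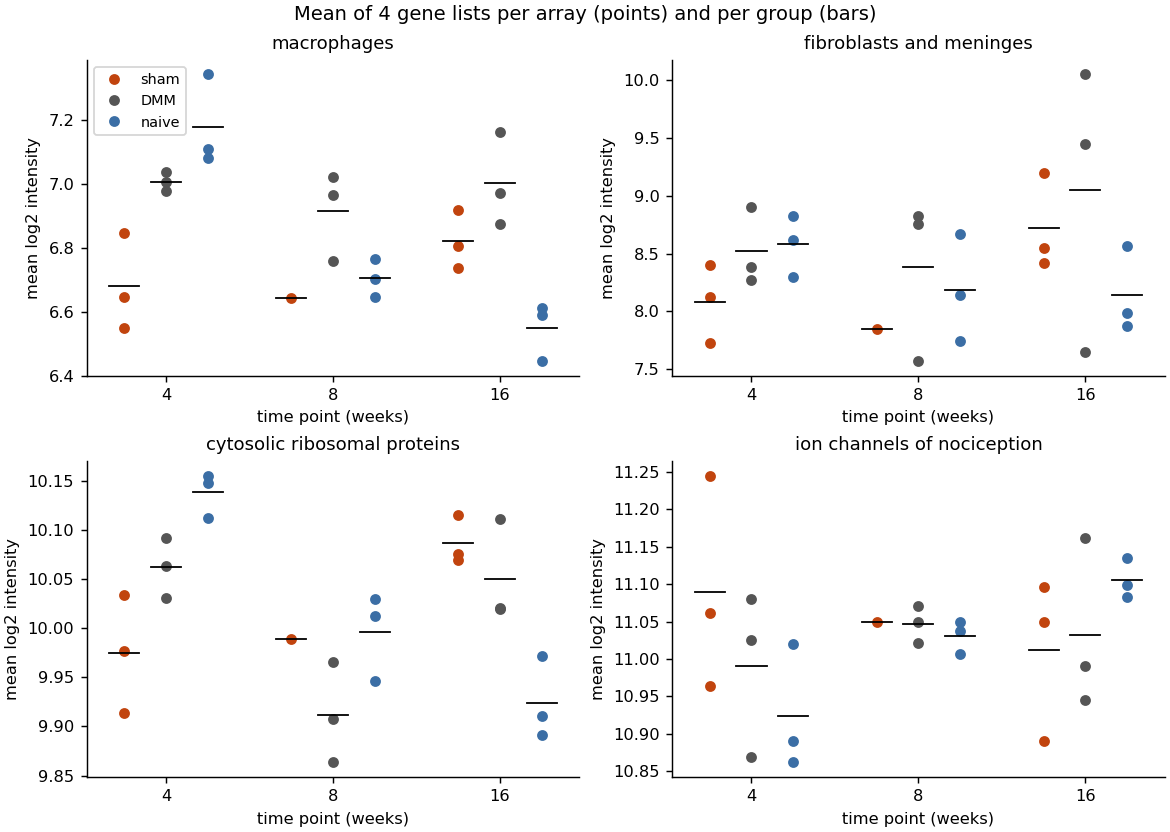
Mean log2 intensity (y axis) of 4 gene lists on each array (points) and per group (bars) at 4, 8 and 16 weeks (x axis), for sham, DMM and naive mice. For macrophage markers the naive mean is the highest of the 3 treatments at 4 weeks (7.18) and the lowest at 16 weeks (6.55), and sham mice at 8 weeks have 1 array.

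DMM mice, a surgical group that takes no part in the contrast, offer a second view of the same genes. Between 16 and 4 weeks the DMM mean was lower in 245 of the 387 genes whose sham effect rose and higher in 19 of the 37 whose effect fell. The median DMM difference was -0.04 among the genes that rose and 0.01 among those that fell. Over all genes tested it was -0.02, so DMM mice leaned to lower values at 16 weeks there too. Mrc1 had DMM means of 9.02 at 16 weeks and 8.94 at 4 weeks, and Csf1r of 7.59 and 7.58. Ribosomal protein genes of the fixed list had DMM means of 10.05 ± 0.05 at 16 weeks and 10.06 ± 0.03 at 4 weeks (SD, n = 3 each). At 8 weeks the macrophage mean was 6.64 on the lone sham array, 6.91 ± 0.14 on the DMM arrays and 6.70 ± 0.06 on the naive arrays (SD, n = 3 for both). Any change of the DMM effect against naive mice would use the same naive arrays and is not set beside the sham result as separate evidence.

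Testing protein-coding genes alone, an alternative added after the data had been seen, left 15 of 13865 past the threshold, and all 15 rose. They are named after their values were seen: the macrophage markers Mrc1, Csf1r, Cd68 and Lyz1, the ribosomal proteins Rpl39, Rpl12 and Rpl41, the mitochondrial Ndufb4b and Atp5l, the RNA-binding proteins Ssb and Ybx1, the actin-capping subunit Capza2, the phospholipase-like Plbd1, Gpihbp1 and Tmem256. Ssb, the La protein that binds new small RNAs, had the smallest p of the 15. It read 12.98, 12.92 and 12.89 in sham mice against 12.67, 12.74 and 12.67 in naive mice at 16 weeks, with 12.76, 12.73 and 12.73 in sham mice against 13.03, 13.01 and 13.02 in naive mice at 4 weeks. The groups were apart at both times with little spread, and the effect rose by 0.51 ± 0.08 (limma adjusted p = 0.00752 over all 20260 genes). Of the 15, 10 passed in each of the 23 alternative settings.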

How the data were processed

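Expression in lumbar dorsal root ganglia was measured on 25 microarrays in 9 groups of treatment and time, grouped by the labels. The deposited values are log2 intensities, 1 per probe set, made by the authors from biotin-labelled RNA, per the labels' protocols. The log2 scale was read from the values. What summary method, normalization and software the authors used is not given in the sources at hand, and an uneven background or scaling would pass into each difference.

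Of 65956 transcript probe sets, 30604 had exactly 1 symbol in the platform annotation, 2146 had several and 33206 had none. The last 2 kinds were left out. Symbols were updated by Entrez identifier in 827 cases. The brightest probe set was used for the 355 genes with several, and genes with a mean above the 40th percentile (4.52) were tested, 20260 of 30142. Of the 424 genes past the threshold, 8 had a mean below the highest negative control median, as had 4286 of the 20260. Gene type and span came from RefSeq (GRCm38.p6).

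One mean per group was fitted over all 25 arrays in limma 3.58.1 (R 4.3.3), which pools the spread of each gene over the groups (16 residual and 3.28 prior degrees of freedom). The change of the sham effect was tested two-sided, with Benjamini-Hochberg adjustment over all genes and a threshold of 0.05. Errors beside differences are standard errors. The number of arrays limits precision, and a 95% interval of the change reached 0.287 to each side at the median. On simulated data with 100 genes shifted by 0.5 and 100 by 1, the fit recovered 43 and 88, with 5 unshifted genes called among the 20260.

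The comparison and the 39 gene lists (714 of 806 entries matched) were chosen with earlier results of these data known. Genes named are up to 10 higher and 10 lower of largest change past the threshold, and up to 4 members of smallest p from each list described. Others of a list were named for their values after these were seen. Alternatives covered the filter, the variance prior, the arrays fitted, 2 scalings, a replicate block, the probe set rule, array weights, a sheath covariate, only protein-coding genes (added after the data were seen) and each array left out. Replicate numbers were not treated as pairs: deviations of the 6 same-numbered pairs of sham and naive arrays correlated at -0.0913 to 0.308, with 3 over 0.1, all at 16 weeks.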

Additional observations from a re-analysis of the deposited data

Results flagged for a closer look

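The sham effect differed between 16 and 4 weeks by the test of the difference itself in 424 genes. The genes named in the text that passed this test are given with the change of their sham effect on the log2 scale.

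It rose in Lyz2 (1.46), C1qb (1.46), Snord58b (1.46), Snord49a (1.26), Snord35a (1.22), Gm26254 (1.15), Gm25128 (1.15), Mir320 (1.09), Clec2d (1.08) and Mrc1 (1.08), which are the largest changes on that side. Among list members it also rose in Csf1r (0.81), Cd68 (0.99), Lyz1 (1.04), C1qc (0.96), Cx3cr1 (0.83), Rpl27 (0.51), Rps29 (0.49), Rplp0 (0.41), Rpl19 (0.41) and Gpihbp1 (0.58). It fell in Siah3 (-1.06), Cbl (-0.95), Gm15559 (-0.87), Dgki (-0.85), DQ267102 (-0.84), Kcna4 (-0.79), Csmd1 (-0.77), Dscam (-0.69), Gm8126 (-0.69) and Igsf3 (-0.67). In each of these genes except Kcna4, every single-array difference between sham and naive mice at 16 weeks lay on one side of every such difference at 4 weeks.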

How the results depend on the processing

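The 424 genes past the threshold became 284 with no filter on dim genes, 677 with a filter at the 60th percentile, 465 with a trended and robust prior, 576 with only the 12 arrays compared, 450 with the mean over probe sets, 1312 with array weights, 116 with the sheath marker mean as a covariate and 15 when only protein-coding genes were tested. With fewer genes tested the adjustment changes too, and the cause of the other differences was not tested. Leaving out 1 array at a time gave 122 (without naive replicate 1 at 16 weeks) to 439 (without naive replicate 3 at 16 weeks). With the replicate number within each time as a block, 351 genes passed (316 higher, 35 lower), 276 of them shared with the 424. Quantile normalization gave 366 and cyclic loess 429, of which 199 and 183 were shared. No gene of the 424 changed direction in any of these settings, which is no separate support, since they reuse the arrays that selected these genes. Of 2353 values of the 103 named genes under 23 settings, 2050 stayed on their side of the threshold, 248 lost it and 55 gained it. Of values past the threshold in either fit, 0 reversed direction. Values past it in neither fit count as staying, also where they changed sign, as happened in Scg2, Hmgcs1 and Hlf. Of 857 list medians, 791 moved by less than 1 SD between arrays and 66 by more. In the simulation, 43 of 100 genes shifted by 0.5 on the log2 scale were found. It was a single draw with independent noise and few genes shifted, so the share in these data may differ. Genes near the negative controls have little range left to fall. Values do not separate animals from technical repeats.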

Other observations

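Several protein-coding genes outside the lists also passed, and they are named after their values were seen. The effect rose for Cybb, the membrane subunit of the phagocyte oxidase (0.86), Alox5ap, the partner of the leukotriene enzyme (0.77), Lilr4b, an inhibitory receptor of myeloid cells (0.65), Apod, a lipid carrier of Schwann cells and fibroblasts (0.79), and Lgals1, the lectin galectin-1 (0.76). It fell for Igf1r, the receptor of insulin-like growth factor (-0.57), Sorl1, a sorting receptor of endosomes (-0.66), Kmt2c, a histone methyltransferase (-0.45), Tsc2, a brake on mTOR signalling (-0.56), and Mycbp2, a ubiquitin ligase of axons (-0.40).

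Across the 20260 genes, the sham effect at 16 weeks and that at 4 weeks, which share no array, had a correlation of -0.32. It is given as a description, since genes are not independent of each other.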
